A study of Mus musculus with 8 samples.

Results

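Mouse spermatogonia entering differentiation expressed a broad set of histone modifier and chromatin remodeler genes, and 62 of the 5736 genes in the table belonged to it. Members were chosen by symbol alone: Kdm, Kmt, Smarc, Chd, Ezh, Setd, Prdm, Brd, Cbx, Phf, Sirt, Kat, Suv, Prmt, Arid, Ing or Tet, followed by a digit or by a letter and a digit. The rule itself used no level or comparison, though the set was chosen with earlier results of these data known. The same rule covered Hdac and Bap symbols, and genes of those names were not analysed here. The set therefore holds enzymes, readers and complex subunits side by side, and it also takes in *Chd3os*, named as an opposite-strand transcript of *Chd3*, and *Smarca5-ps*, a pseudogene.

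Chromatin regulators write, erase or read chemical marks on histone tails, or use ATP to move nucleosomes. Polycomb complexes keep genes silent: PRC2 methylates histone H3 at lysine 27 and PRC1, through its CBX subunits, binds that mark and compacts chromatin. COMPASS-type methyltransferases and SWI/SNF and CHD remodelers act mostly at promoters and enhancers of active genes, while SUV39H and SETDB1 enzymes place the lysine 9 methylation of heterochromatin. In the testis, spermatogonia lose stem cell potential and gain the ability to enter meiosis while chromatin is reorganised, and several of these enzymes are required for male fertility in mice.

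RNA was sequenced from EGFP+ germ cells sorted from testes of CD1:Uchl1-eGFP mice, in which the *Uchl1* promoter drives EGFP, after outcrossing of a C57BL/6 line to CD-1 mice. All groups carried the transgene, and the labels give all of them the same treatment: oral bis-(dichloroacetyl)-diamine, an inhibitor of retinoic acid (RA) synthesis, at 100 µg per g of body weight, and then 1 injection of 10 µl RA at 10 µg/µl on postnatal day (P) 11. The groups were undifferentiated spermatogonia (Aal, 2 libraries, which by the design text filled the testis at P11, when RA was injected), type A1 differentiating spermatogonia (3 libraries, a day after RA) and type A3 differentiating spermatogonia (3 libraries, collection age not given in the labels). The authors describe undifferentiated spermatogonia in testes at P11 after the inhibitor, with RA then injected to induce differentiation. Aal cells may thus have been taken before RA, although the labels list the injection for them too. By that design, A1 and A3 also differ from Aal in age and in RA exposure or time since RA. These cannot be told apart from cell stage. Each preparation pooled testes of at least 5 pups of a litter, so p-values describe the spread between pooled preparations.

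Library totals ran from 18276164 to 27316451 reads, and the genes analysed held 34.0% to 34.4% of them. Members had 8 to 20052 reads per library. The summed level of 7 spermatogonial markers ran from 4530 to 7770 FPKM (fragments per kilobase, corrected for library size) across libraries. *Uchl1*, whose promoter drives EGFP, made up most of it, at 4050 to 7270 FPKM. *Id4*, *Nanos2*, *Nanos3* and *Upp1* were higher in both Aal libraries than in all others, *Sohlh2* was lower there, and *Dazl* ran from 303 to 437 FPKM. Summed over 8 Sertoli cell markers, the level was 36.8 and 48.0 FPKM in Aal, 54.5, 51.2 and 365 FPKM in A1 replicates 1, 2 and 3, and 188 to 352 FPKM in A3, and *Clu* made up the largest share. Leydig (3 markers), peritubular myoid (3 markers) and macrophage (2 markers) sums were highest in A1 replicate 3, at 8.8, 6.53 and 9.13 FPKM. Endothelial sums (4 markers) were 8.74 and 10.3 FPKM in Aal, 6.74, 6.98 and 8.98 FPKM in A1 and 3.35 to 3.97 FPKM in A3. These markers did not move together. *Cdh5* and *Kdr* were lower in A1 and A3 than in Aal, and *Tek* was lower only in A3. *Eng* was higher in A1 than in Aal, and its A3 and Aal libraries overlapped. Sums of 2 later germ cell markers stayed between 1.6 and 5.66 FPKM. No red blood cell marker was among the genes analysed. The part of other cells in the results was not tested, and in bulk samples fewer cells of a type and less RNA per cell cannot be told apart.

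Chromatin regulators were well expressed. Their median level, averaged over all 8 libraries, was 21.73 FPKM against 5.934 FPKM for all genes, 43 of the 62 averaged over 10 FPKM and 16 over 50 FPKM. The most abundant was *Brd2*, a bromodomain reader of acetylated histones, at 115 FPKM, followed by the SWI/SNF core subunit *Smarcc1* at 112 FPKM. *Kdm4d*, *Prdm1*, *Prdm12* and *Tet1* averaged under 1 FPKM and were tested in no comparison, which left 58 members with a test. *Smarca5-ps* was tested only in the comparisons with A3.

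Differences were tested with limma on log2(FPKM + 1), so fold changes of low genes are understated, and a member is said to differ where its p, adjusted by the Benjamini-Hochberg method over all genes tested, was 0.05 or less. In A1 against Aal, 10 of 57 members were higher in A1, where 21.4% of all genes were, and 13 were lower, where 20.6% of all genes were. In A3 against A1, 4 of 58 were higher in A3 (7.95% of all genes) and 10 were lower (11.5% of all genes). In A3 against Aal, 13 of 58 were higher (29.8% of all genes) and 19 were lower (27.7% of all genes). A stricter rule asked for an adjusted p no higher than 0.01 together with a log2 fold change beyond 1 in either direction. In A1 against Aal 4 members passed it (9.15% of all genes), 1 higher (4.19% of all genes) and 3 lower (4.97%). In A3 against A1 1 passed it (1.5%), a lower one (1.02%), and 0 were higher (0.479%). In A3 against Aal 9 passed it (17.6%), 3 higher (7.87%) and 6 lower (9.69%). These shares lie near the background, so the set as a whole did not stand out from the other genes by its counts. The median log2 fold change of members was -0.01, -0.04 and -0.09 in the 3 comparisons, against 0.03, 0.01 and 0.05 for all genes.

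Because neighbouring comparisons share the A1 or the Aal libraries, their values are not independent. The counts also rest on few libraries. Higher calls in A1 against Aal numbered 6, 4 and 5 without Aal replicate 1, Aal replicate 2 or A1 replicate 2, and the strict calls numbered 2, 1 and 2 without the same libraries. Without A1 replicate 3, which had the high Sertoli sum, 9 members were higher and 11 lower. In A3 against A1, leaving out A1 replicate 1, A3 replicate 2 or A3 replicate 3 left 1 higher call each, leaving out A3 replicate 2 or 3 left 6 lower calls each, and 3 members passed the strict rule without A3 replicate 1. Higher calls in A3 against Aal numbered 7 without Aal replicate 2.

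**Figure D1:**
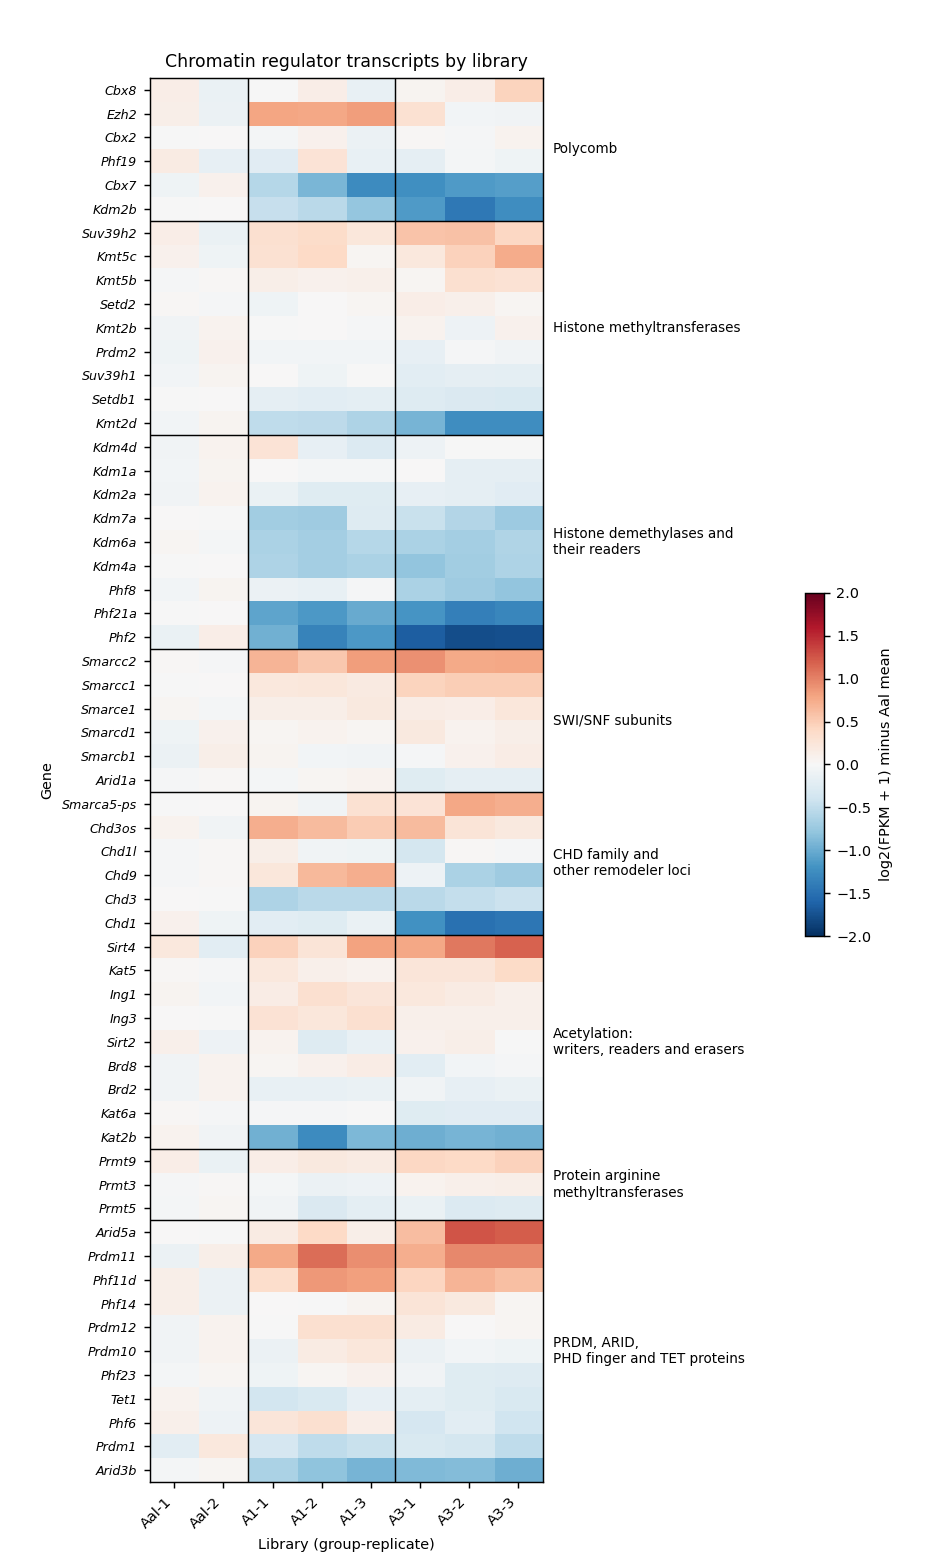
Level of 59 members in each library, as log2(FPKM + 1) minus the mean of the 2 Aal libraries (color scale, from -2 to 2), with genes in rows grouped by role and libraries in columns. Most rows are pale, and strong color gathers in few genes, such as *Arid5a* and *Prdm11* (higher) and *Phf2*, *Kdm2b* and *Chd1* (lower).

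Of the members tested in both steps, *Smarcc1* rose at each step, *Kdm2b*, *Kmt2d* and *Phf2* fell at each step, and *Ezh2* and *Chd9* rose in A1 and fell again in A3. Another 10 members fell in A1 with no second difference past the threshold, and 6 rose in A1 in the same way. In the second step alone, 5 members fell and 2 rose. A further 27 passed the threshold in neither step. The shares of these patterns over all genes were not counted, so the counts only describe the members.

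**Figure D2:**
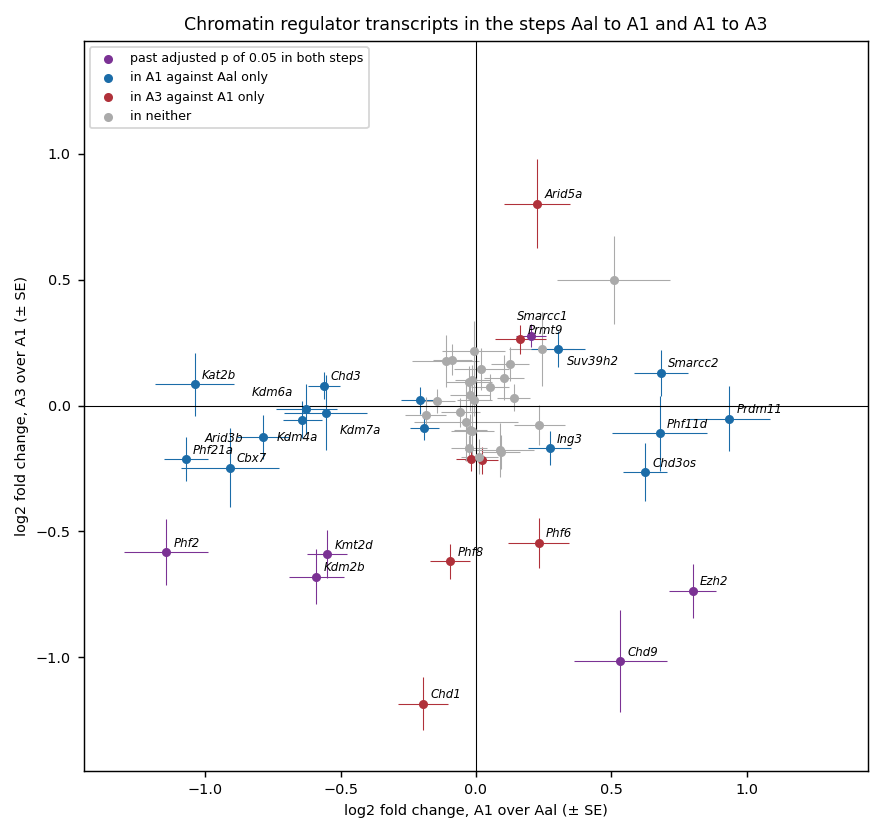
Log2 fold change on the log2(FPKM + 1) scale of 54 members tested in both steps, A1 over Aal on the x axis and A3 over A1 on the y axis, with bars for the SE and color for the step in which a member passed an adjusted p of 0.05. Both axes use the A1 libraries, with opposite sign, so no correlation is read from the plot. Genes that passed in either step are labelled where a change exceeds 0.25, with *Arid5a* at the top, *Phf2* and *Kdm2b* at the lower left, and *Ezh2* and *Chd9* at the lower right.

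RefSeq promoter windows (GRCm38.p6, a different build from the deposited values) were matched for 47 members with 69 windows, and the 250 bases before the start site were read. The windows below are shown because their genes moved in different ways in the sections that follow: *Cbx7* and *Phf2* fell, *Ezh2* rose and fell again, and *Smarcc2* rose. Capitals mark CpG dinucleotides, and each sequence runs 5′ to 3′ on the strand of the gene.
Cbx7, chr15:79932647-79932896, minus strand: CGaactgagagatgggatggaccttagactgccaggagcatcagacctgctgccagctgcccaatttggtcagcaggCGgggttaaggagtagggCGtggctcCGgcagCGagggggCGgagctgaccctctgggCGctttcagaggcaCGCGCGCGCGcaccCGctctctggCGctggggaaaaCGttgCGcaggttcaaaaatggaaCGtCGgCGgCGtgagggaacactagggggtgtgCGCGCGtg
Phf2, chr13:48870886-48871135, minus strand: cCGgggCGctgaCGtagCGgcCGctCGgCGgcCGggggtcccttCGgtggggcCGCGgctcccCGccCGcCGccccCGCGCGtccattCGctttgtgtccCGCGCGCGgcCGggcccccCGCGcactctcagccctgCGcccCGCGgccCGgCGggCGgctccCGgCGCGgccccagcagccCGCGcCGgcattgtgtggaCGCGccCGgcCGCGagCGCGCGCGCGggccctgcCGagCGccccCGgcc
Ezh2, chr6:47595031-47595280, minus strand: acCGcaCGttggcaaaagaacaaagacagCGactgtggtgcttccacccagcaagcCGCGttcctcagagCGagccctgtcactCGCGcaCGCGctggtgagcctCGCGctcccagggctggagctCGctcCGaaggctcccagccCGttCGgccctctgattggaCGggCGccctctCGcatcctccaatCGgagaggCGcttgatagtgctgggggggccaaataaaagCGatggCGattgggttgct
Smarcc2, chr10:128458986-128459235, plus strand: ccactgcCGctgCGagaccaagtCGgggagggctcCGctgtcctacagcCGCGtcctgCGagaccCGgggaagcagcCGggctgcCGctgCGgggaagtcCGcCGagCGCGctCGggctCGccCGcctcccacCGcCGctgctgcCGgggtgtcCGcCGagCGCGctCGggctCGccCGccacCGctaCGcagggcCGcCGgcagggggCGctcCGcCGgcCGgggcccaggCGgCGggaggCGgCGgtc

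All 4 windows are rich in CpG dinucleotides, with 23 in *Cbx7*, 50 in *Phf2*, 23 in *Ezh2* and 40 in *Smarcc2*. The median member window held 21 CpG dinucleotides at 61.2% GC, the median window of other tested genes 15 at 60.4% GC, and the median of all 32851 windows 6 at 52.4% GC. For a split by direction in A3 against Aal, each member was given the count of its window with the most CpG dinucleotides. The median of these counts was 23 for the 15 lower members with a window and 17.5 for the 10 higher ones. It was 22 for the 18 that did not pass the threshold, so direction and CpG content were not set apart. The nuclear receptor hexamer AGGTCA, searched on both strands, lay in 3 of 69 member windows (4.35%), those of *Kdm1a*, *Kdm6a* and *Tet1*, against 10.5% of windows of other tested genes and 14% of all windows. That hexamer repeated with 5 or with 2 bases between, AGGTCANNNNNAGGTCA and AGGTCANNAGGTCA, lay in 0 member windows and in 0.00913% of all windows each. A GC box, GGGCGG, lay in 63.8% of member windows, 57.4% of windows of other tested genes and 32.7% of all windows, and the E-box CACGTG in 5.8%, 7.95% and 6.02%. The E2F-like string TTCCCGC lay in 10 member windows, or 14.5%, against 7.02% and 3.82%, and TTGGCGC in 4, or 5.8%, against 3.11% and 1.97%. A match to such letters is a description and not a bound site.

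Of 7 Polycomb genes tested, 2 were higher and 2 lower in A1 than in Aal, where 21.4% and 20.6% of all genes were. In A3 1 was higher and 2 lower than in A1 (7.95% and 11.5% of all genes), and 1 was higher and 2 lower than in Aal (29.8% and 27.7%). *Cbx7* (chr15:79746237-79801549, minus strand, mm9), which encodes a PRC1 reader known for maintaining stem cell states, had 41.9 and 47.2 FPKM in Aal, 29.7, 23.2 and 18.1 FPKM in A1, and 18.4, 19.8 and 20.2 FPKM in A3. Both Aal libraries lay above every A1 and A3 library. The log2 fold change was -0.91 ± 0.18 (SE) in A1 against Aal (limma adjusted p = 0.0062) and -1.16 ± 0.08 in A3 against Aal (adjusted p = 2.8e-05), while A3 and A1 overlapped (-0.25 ± 0.16, adjusted p = 0.32). The A1 call was lost without Aal replicate 2 (adjusted p = 0.079).

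Of the PRC1 readers, *Cbx2* (chr11:118884276-118892584, plus strand), the most abundant, ran from 56.6 to 65.5 FPKM over all libraries and *Cbx8* (chr11:118897619-118902283, minus strand) from 19.0 to 29.3 FPKM, and neither passed the threshold in any comparison. For A3 against Aal the 95% confidence interval of the log2 fold change ran from -0.13 to 0.17 for *Cbx2* and from -0.11 to 0.53 for *Cbx8*.

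*Ezh2* (chr6:47480273-47545340, minus strand), the catalytic subunit of PRC2, peaked in A1. It had 15.1 and 12.8 FPKM in Aal, 24.8, 24.7 and 25.6 FPKM in A1, and 17.5, 13.4 and 13.3 FPKM in A3. Every A1 library lay above every library of the other groups, and Aal and A3 overlapped. The log2 fold change was 0.80 ± 0.09 in A1 against Aal (adjusted p = 0.00048), -0.74 ± 0.11 in A3 against A1 (adjusted p = 0.0041) and 0.07 ± 0.14 in A3 against Aal (adjusted p = 0.71), and both steps passed under each alternative tried. *Kdm2b* (chr5:123320677-123465089, minus strand), which recruits a variant PRC1 to unmethylated CpG islands and demethylates lysine 36 of histone H3, had 35.2 and 35.6 FPKM in Aal, 25.6, 24.1 and 20.3 FPKM in A1, and 15.6, 12.5 and 14.4 FPKM in A3. Its groups were separate at each step, with log2 fold changes of -0.59 ± 0.10 (adjusted p = 0.0032) and -0.68 ± 0.11 (adjusted p = 0.0059). In A3 it stood 2.5-fold below Aal (-1.27 ± 0.10, adjusted p = 3.3e-05). *Phf19*, a PRC2 accessory subunit, was low, at 0.888 to 1.65 FPKM, and passed in no comparison.

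Polycomb partners outside the symbol rule gave a mixed picture. Of 11 tested, 3 were higher and 3 lower in A1 than in Aal (21.4% and 20.6% of all genes), and 4 were higher and 4 lower in A3 than in Aal (29.8% and 27.7%). Higher in A1 were *Pcgf2* (log2 fold change 0.90, adjusted p = 0.00031), a PRC1 core subunit, *Jarid2* (0.31, adjusted p = 0.024), a PRC2 cofactor, and *Pcgf3*. *Mtf2*, which brings PRC2 to CpG islands, went from 48.5 and 47.5 FPKM in Aal to 31.8 to 33.7 FPKM in A1 (-0.55, adjusted p = 0.00053), and *Sfmbt2* and *Asxl3* were lower as well. *Rnf2*, the ubiquitin ligase of PRC1, ran from 30.2 to 39.0 FPKM in Aal and A1 and from 19.7 to 23.1 FPKM in A3, lower than in A1 (-0.68, adjusted p = 0.0045).

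Among the 9 histone methyltransferases, 1 rose and 2 fell in A1 (21.4% and 20.6% of all genes), 0 rose and 1 fell between A1 and A3 (7.95% and 11.5%), and 2 were higher and 3 lower in A3 than in Aal (29.8% and 27.7%). *Kmt2d* (chr15:98662100-98701614, minus strand), which places lysine 4 monomethylation at enhancers, had 36.9 and 40.3 FPKM in Aal, 26.7, 26.6 and 24.7 FPKM in A1, and 19.7, 15.7 and 15.7 FPKM in A3. The groups did not overlap, and the log2 fold changes were -0.55 ± 0.07 (adjusted p = 0.0010) and -0.59 ± 0.10 (adjusted p = 0.0059) for the steps and -1.14 ± 0.11 (adjusted p = 8.4e-05) for A3 against Aal. Its relative *Kmt2b*, which acts at promoters, ran from 64.7 to 74.0 FPKM with overlapping groups in all comparisons, and the 95% interval for A3 against Aal was -0.18 to 0.22. COMPASS partners had 3 of 6 higher in A1 than in Aal (*Ash2l*, *Cxxc1* and *Pagr1a*) and 0 lower, where 21.4% and 20.6% of all genes were. Between A1 and A3 *Hcfc1* and *Ncoa6* were lower and 0 higher, where 11.5% and 7.95% of all genes were.

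The lysine 9 enzymes moved in different directions. *Suv39h2* (chr2:3373087-3392303, minus strand), described as the more testis-restricted paralog, had 23.2 and 18.9 FPKM in Aal, 26.4, 27.3 and 24.6 FPKM in A1, and 31.7, 31.9 and 28.4 FPKM in A3, so the 3 groups were separate. It was higher in A3 than in Aal (0.53 ± 0.10, adjusted p = 0.0026) and in A1 than in Aal (0.30 ± 0.10, adjusted p = 0.044). The latter call was lost in median-ratio and quantile scaling (adjusted p = 0.057 and 0.072) and without Aal replicate 2 or A1 replicate 1 or 2 (up to 0.28). *Suv39h1*, on the X chromosome, went the other way, from 57.3 and 62.0 FPKM in Aal to 51.3 to 52.8 FPKM in A3 (-0.19 ± 0.07, adjusted p = 0.037), a call lost when any 1 of the 5 libraries was left out (adjusted p of up to 0.25). The ratio of *Suv39h1* to *Suv39h2* was 2.47 and 3.28 in Aal, 2.06 to 2.41 in A1 and 1.62 to 1.84 in A3. *Setdb1*, the enzyme that silences retroelements, had 88.1 and 88.7 FPKM in Aal, 76.5 to 77.9 FPKM in A1 and 71.1 to 74.1 FPKM in A3, lower in A3 than in Aal (-0.28 ± 0.06, adjusted p = 0.0046). Its lower level in A1 (-0.19 ± 0.05, adjusted p = 0.026) was lost without any of Aal replicates 1 and 2 and A1 replicates 2 and 3 (up to 0.10). Of 6 lysine 9 and heterochromatin partners, *Wiz* (0.68, adjusted p = 0.00032) and *Uhrf1* were higher in A1 and 0 were lower, where 21.4% and 20.6% of all genes were. *Trim28*, the corepressor that recruits SETDB1, was higher in A3 than in A1 (0.25, adjusted p = 0.042), where 7.95% of all genes were. *Uhrf1*, which couples DNA methylation to replication, had 51.3 and 45.3 FPKM in Aal and 110 to 112 FPKM in A1 (1.19, adjusted p = 0.00013).

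Of the lysine 20 and lysine 36 writers, *Kmt5c* passed the threshold in A3 against Aal. *Kmt5c*, which trimethylates lysine 20 of histone H4, had 17.7 and 15.7 FPKM in Aal and 19.4, 23.2 and 28.5 FPKM in A3 (0.47 ± 0.15, adjusted p = 0.025), lost without Aal replicate 1 or 2 (up to 0.16). *Kmt5b* did not pass in any comparison, and *Setd2*, which trimethylates lysine 36 of histone H3, ran from 40.4 to 47.2 FPKM without passing. *Prdm2* stayed between 27.1 and 32.2 FPKM.

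Histone demethylases and the PHD finger proteins that work with them included no member that rose. Of 8 tested, 6 were lower and 0 higher in A1 than in Aal (20.6% and 21.4% of all genes), 2 were lower and 0 higher in A3 than in A1 (11.5% and 7.95%), and 7 were lower and 0 higher in A3 than in Aal (27.7% and 29.8%). Their median log2 fold change in A3 against Aal was -0.67, against 0.05 for all genes. The role group was formed with earlier results of these data known, so the count is a description.

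*Phf2* (chr13:48897119-48966254, minus strand), a lysine 9 demethylase, had the lowest fold change of all members. It had 7.43 and 9.04 FPKM in Aal, 3.73, 2.65 and 3.17 FPKM in A1, and 1.94, 1.68 and 1.72 FPKM in A3, with no overlap at either step. Its mean was 4.63-fold lower in A3 than in Aal (-1.73 ± 0.14, adjusted p = 3.5e-05), with steps of -1.15 ± 0.16 (adjusted p = 0.0012) and -0.58 ± 0.13 (adjusted p = 0.020). The second step was lost without A1 replicate 1 or A3 replicate 2 or 3 (adjusted p of up to 0.081). *Phf21a* (chr2:91933274-92204823, plus strand), which reads unmethylated lysine 4 within the LSD1 and CoREST complex, had 23.7 and 24.2 FPKM in Aal, 10.96, 10.2 and 11.4 FPKM in A1, and 9.97, 8.65 and 9.10 FPKM in A3. It fell at the first step (-1.07 ± 0.08, adjusted p = 0.00022), and the further difference in A3 did not pass (-0.21 ± 0.09, adjusted p = 0.13). *Phf21a* overlaps 3 genes on its own strand in GENCODE M1, among them *Mir1955*, so its reads are less certain.

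By contrast *Kdm1a*, the LSD1 demethylase that partners PHF21A, ran from 69.5 to 81.7 FPKM with overlapping groups in each comparison, and its interval for A3 against Aal was -0.31 to 0.07. *Kdm1a* also overlaps a gene on its own strand, *Gm12987*, so its reads are less certain as well. The scaffold *Rcor1* had 8.61 and 9.47 FPKM in Aal, 6.16, 7.46 and 9.67 FPKM in A1, and 4.05, 3.91 and 3.62 FPKM in A3, lower in A3 than in A1 (-0.83, adjusted p = 0.0095) and than in Aal (-1.05, adjusted p = 0.00018). The reader and the scaffold *Rcor1* were thus lower in A3 than in Aal, while the enzyme did not pass the threshold. The related scaffold *Rcor3* did not pass in any comparison either (A3 against Aal -0.54, adjusted p = 0.065). Of 5 NuRD, Sin3 and CoREST partners tested, *Rcor1* was the 1 lower in A3 than in Aal and *Brms1* (0.28, adjusted p = 0.014) the 1 higher, where 27.7% and 29.8% of all genes were.

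*Kdm4a*, which removes lysine 9 and lysine 36 methylation, had 23.3 and 23.6 FPKM in Aal, 15.0, 14.3 and 14.8 FPKM in A1, and 13.2, 14.2 and 15.0 FPKM in A3. The X-linked *Kdm6a*, which removes lysine 27 methylation, had 6.71 and 6.36 FPKM in Aal and 3.69 to 4.07 FPKM in the libraries of A1 and A3. Both genes fell in A1 (-0.64 ± 0.07, adjusted p = 0.00052, and -0.63 ± 0.11, adjusted p = 0.0040) and A3 overlapped A1. *Kdm7a*, a lysine 9 and lysine 27 demethylase, had the same form, from 12.7 and 12.6 FPKM in Aal to 7.31 to 10.4 FPKM in A1 and 7.21 to 9.07 FPKM in A3 (A1 against Aal -0.56 ± 0.15, adjusted p = 0.024, lost without Aal replicate 1 or 2 or A1 replicate 1 or 2, up to 0.13). *Kdm2a*, a lysine 36 demethylase, changed least among those called, from 54.1 and 59.2 FPKM in Aal to 47.6 to 51.4 FPKM in A1 (-0.21 ± 0.07, adjusted p = 0.047), and that call was lost without either Aal library or A1 replicate 2 or 3 (up to 0.26).

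*Phf8* (chrX:147955215-148068402, plus strand), a lysine 9 and lysine 20 demethylase, differed at the second step. It had 29.5 and 32.0 FPKM in Aal, 28.4, 27.5 and 30.2 FPKM in A1, and 19.5, 18.3 and 17.3 FPKM in A3. A1 overlapped Aal, and each A3 library lay below each other library (A3 against A1 -0.62 ± 0.07, adjusted p = 0.0017). *Kdm4d* was listed between 0.493 and 1.18 FPKM. Of other histone methylation enzymes on the list, 3 of 8 were lower in A1 and 0 higher (20.6% and 21.4% of all genes). The lower ones were *Jmjd1c* (-0.57, adjusted p = 0.00059), *Smyd3* (-0.55, adjusted p = 0.0039) and *Smyd1*. *Jmjd6* was lower in A3 than in A1 (11.5% of all genes). In A3 against Aal 4 of these enzymes were lower and 2 higher (27.7% and 29.8% of all genes), the latter *Dot1l* and *Mina*.

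The 4 X-linked members, *Kdm6a*, *Phf6*, *Phf8* and *Suv39h1*, each had a negative log2 fold change in A3 against Aal (-0.64, -0.31, -0.71 and -0.19), and 3 of them passed the threshold. *Phf6* did not (adjusted p = 0.062). Over the 175 X-linked genes tested 27.4% were lower in A3, against 27.8% of 3992 autosomal genes, so the share of lower genes was nearly the same on the X chromosome and the autosomes.

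**Figure D3:**
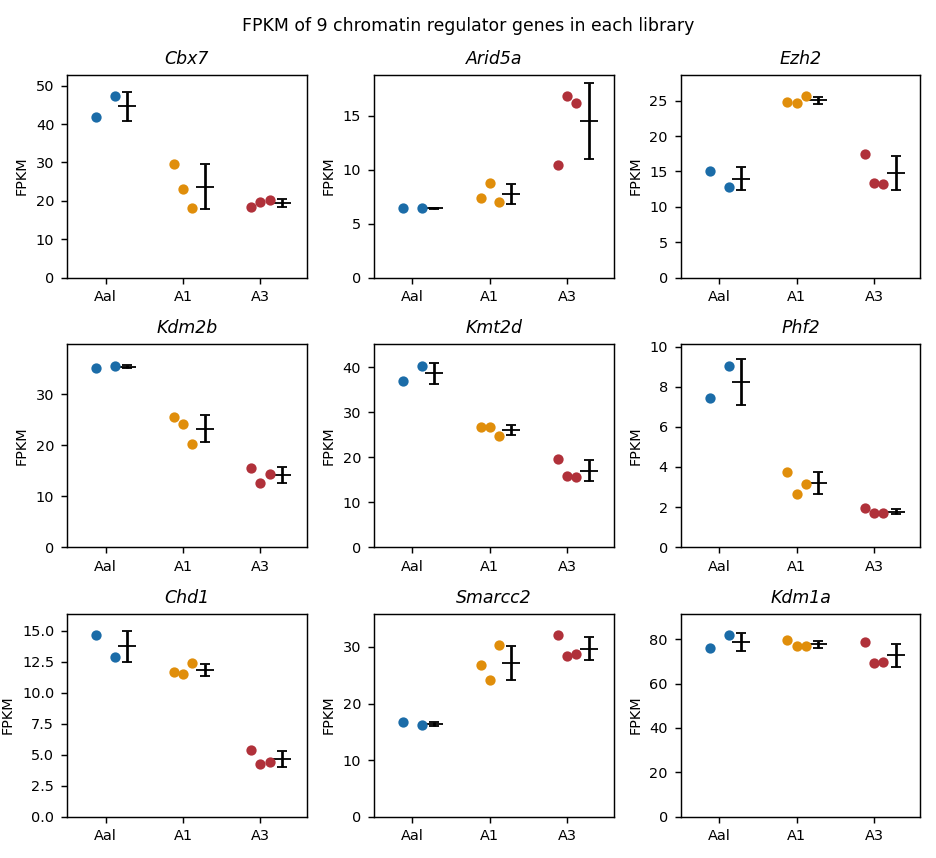
FPKM of 9 members in each library (points) by group (Aal in blue, A1 in orange, A3 in red), with the group mean and SD in black beside the points and each y axis starting at 0. *Cbx7*, *Kdm2b*, *Kmt2d* and *Phf2* step down, *Arid5a* is highest in A3, *Ezh2* is highest in A1, *Chd1* drops in A3, *Smarcc2* is higher in A1 and A3 than in Aal, and the groups of *Kdm1a* overlap.

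Among 6 SWI/SNF subunits, *Smarcc1* and *Smarcc2* were higher in A1 than in Aal and 0 were lower, against 21.4% and 20.6% of all genes. These paralogs encode BAF155 and BAF170, core scaffolds of the complex. *Smarcc2* (chr10:127896292-127927229, plus strand) had 16.7 and 16.2 FPKM in Aal, 26.9, 24.3 and 30.3 FPKM in A1, and 32.1, 28.4 and 28.7 FPKM in A3. Aal stood apart below both other groups, which overlapped, and the log2 fold change was 0.68 ± 0.10 in A1 (adjusted p = 0.0016) and 0.81 ± 0.08 in A3 (adjusted p = 0.00011) against Aal. *Smarcc1* (chr9:110034541-110142682, plus strand) had 92.8 and 93.1 FPKM in Aal, 108, 109 and 105 FPKM in A1, and 127, 132 and 132 FPKM in A3, and was higher in A3 than in A1 (0.28 ± 0.05, adjusted p = 0.0065). Its step in A1 (0.20 ± 0.06, adjusted p = 0.022) was lost under quantile scaling (adjusted p = 0.49) and without Aal replicate 1 or 2 or A1 replicate 2 (up to 0.096). *Smarcc1* remained the more abundant paralog, by 5.56 and 5.74 times in Aal, 3.48 to 4.50 times in A1 and 3.97 to 4.64 times in A3.

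Of the remaining SWI/SNF subunits, *Smarcb1*, a core subunit present in canonical complexes, ran from 57.6 to 69.2 FPKM and did not pass, and neither did *Smarcd1* or *Smarce1*. *Arid1a*, the DNA-binding subunit of the canonical BAF complex, ran from 48.9 to 52.8 FPKM in Aal and A1 and from 42.6 to 44.6 FPKM in A3 (A3 against A1 -0.22 ± 0.05, adjusted p = 0.028), a call lost without A1 replicate 2 or 3 or A3 replicate 2 or 3 (up to 0.10). Of 6 further subunits, *Dpf2* was higher (0.19, adjusted p = 0.038) and *Gltscr1* lower in A1, where 21.4% and 20.6% of all genes were. *Bcl7a* went from between 9.85 and 10.2 FPKM in Aal and A1 to between 4.41 and 4.66 FPKM in A3 (A3 against A1 -0.99, adjusted p = 0.00084), where 11.5% of all genes were lower.

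CHD remodelers each followed a course of their own. *Chd1* (chr17:15841931-15909574, plus strand), which binds lysine 4 methylation at transcribed genes, had 14.6 and 12.9 FPKM in Aal, 11.7, 11.5 and 12.4 FPKM in A1, and 5.39, 4.23 and 4.40 FPKM in A3. Every A3 library lay well below every Aal and A1 library, and the log2 fold change was -1.18 ± 0.11 in A3 against A1 (adjusted p = 0.00084), the 1 member past the strict rule in that comparison. The difference in A1 did not pass (-0.20 ± 0.09, adjusted p = 0.13). *Chd9* had 3.27 and 3.45 FPKM in Aal, 4.09, 5.85 and 6.17 FPKM in A1, and 3.06, 1.81 and 1.65 FPKM in A3, with groups apart. It was higher in A1 (0.53 ± 0.17, adjusted p = 0.042) and lower in A3 than in A1 (-1.02 ± 0.20, adjusted p = 0.013). The first call was lost in median-ratio scaling (adjusted p = 0.053), in the fit on all 8 libraries (0.069) and without either Aal library or A1 replicate 2 or 3 (up to 0.18), and the second without A1 replicate 2 or A3 replicate 2 or 3 (up to 0.060).

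*Chd3* (chr11:69156775-69182928, minus strand), an ATPase of the NuRD complex, had 61.8 and 60.9 FPKM in Aal, 39.7, 42.0 and 41.9 FPKM in A1, and 42.0, 43.7 and 45.1 FPKM in A3. It fell in A1 (-0.56 ± 0.06, adjusted p = 0.00043) and A3 overlapped A1. *Chd3os* had 47.2 and 43.0 FPKM in Aal, 75.04, 70.7 and 64.7 FPKM in A1, and 70.0, 54.1 and 51.8 FPKM in A3, higher in A1 than in Aal (0.63 ± 0.08, adjusted p = 0.00097). Its excess in A3 over Aal (0.36 ± 0.13, adjusted p = 0.037) was lost under median-ratio and quantile scaling (up to 0.13) and without Aal replicate 1 or 2 (up to 0.21). The ratio of *Chd3os* to *Chd3* was 0.765 and 0.706 in Aal, 1.55 to 1.89 in A1 and 1.15 to 1.67 in A3. The libraries were made with a stranded kit, but no source states whether counting used strand, so reads of the pair may not be fully told apart. *Chd1l* ran from 39.3 to 54.7 FPKM and did not pass. *Smarca5-ps*, whose sequence resembles its parent gene and whose reads are therefore uncertain, had 0.629 and 0.637 FPKM in Aal, 0.699, 0.556 and 1.02 FPKM in A1, and 0.971, 1.801 and 1.70 FPKM in A3 (A3 against Aal 0.59 ± 0.17, adjusted p = 0.018, lost without either Aal library, up to 0.11).

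Among 9 other remodelers on the list of partners, *Hells* and *Ercc6l* were higher and *Smarcad1* was lower in A1 than in Aal (21.4% and 20.6% of all genes). *Hells*, which supports DNA methylation at repeats, had 133 and 110 FPKM in Aal, 259, 274 and 280 FPKM in A1, and 263 to 312 FPKM in A3 (A1 against Aal 1.15, adjusted p = 0.00024). *Smarcad1* went from 22.4 and 21.9 FPKM to 12.6 to 14.8 FPKM (-0.62, adjusted p = 0.0017). Of 11 histone chaperones, 5 were higher and 0 lower in A1 than in Aal, where 21.4% and 20.6% of all genes were, and their median log2 fold change was 0.11, against 0.03 for all genes. The 5 were *Nasp* (1.35, adjusted p = 0.00064), *Mcm2* (1.05, adjusted p = 0.00028), *Asf1b* (0.60, adjusted p = 0.0015), *Ssrp1* and *Ubn1*. These carry histones to newly replicated or transcribed DNA, and *Mcm2* is also part of the replicative helicase. In A3 against A1 0 of 11 chaperones and 0 of 9 remodelers passed in limma, where 7.95% of all genes were higher and 11.5% lower. At an unadjusted p under 0.05 there were 2 higher and 1 lower chaperones and 1 higher and 1 lower remodelers.

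Of 10 acetylation genes, 1 was higher and 1 lower in A1 than in Aal (21.4% and 20.6% of all genes), 0 were higher and 1 lower in A3 than in A1 (7.95% and 11.5%), and 2 were higher and 2 lower in A3 than in Aal (29.8% and 27.7%). *Kat2b* (chr17:53706186-53812045, plus strand), the PCAF acetyltransferase of histone H3, had 7.85 and 7.11 FPKM in Aal, 3.36, 2.55 and 3.52 FPKM in A1, and 3.296, 3.47 and 3.35 FPKM in A3. Both Aal libraries were above all others by more than the spread within a group, and the fall came at the first step (-1.04 ± 0.15, adjusted p = 0.0014) with A3 overlapping A1 (0.08 ± 0.13, adjusted p = 0.70). *Sirt4*, a mitochondrial sirtuin that shares the family name but not a chromatin role, had 2.03 and 1.24 FPKM in Aal, 2.58, 2.12 and 3.56 FPKM in A1, and 3.46, 4.43 and 4.91 FPKM in A3, higher in A3 than in Aal (1.01 ± 0.18, adjusted p = 0.0018). *Kat5*, the TIP60 acetyltransferase, had 29.2 and 28.1 FPKM in Aal and 34.0 to 37.7 FPKM in A3 (0.29 ± 0.08, adjusted p = 0.012), lost without Aal replicate 2 (0.088). *Kat6a* had 53.0 to 55.2 FPKM in Aal and A1 and 45.7 to 46.2 FPKM in A3 (A3 against A1 -0.21 ± 0.05, adjusted p = 0.017), lost without A1 replicate 2 or A3 replicate 2 or 3 (up to 0.065).

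The bromodomain reader *Brd2* was abundant and did not pass in any comparison. It ran from 110 to 130 FPKM, with a 95% interval for A3 against Aal of -0.30 to 0.04. *Brd8*, *Ing1* and *Sirt2* did not pass either. *Ing3*, a lysine 4 reader in the TIP60 complex, had 12.4 and 12.2 FPKM in Aal and 14.4 to 15.5 FPKM in A1 (0.27 ± 0.08, adjusted p = 0.029), and that call was lost whichever of the 5 libraries was left out (up to 0.13). Of 9 acetyltransferase partners, 0 passed in A1 in limma, also at an unadjusted p under 0.05. Of all genes, 21.4% were higher and 20.6% lower there at the adjusted threshold. In A3 2 partners were higher than in Aal (*Tada2a* and *Cdyl*) and 2 lower, where 29.8% and 27.7% of all genes were. The lower ones were *Epc2* (-1.17, adjusted p = 9.0e-05) and the acetyltransferase *Crebbp* (-0.25, adjusted p = 0.0096).

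Of 3 arginine methyltransferases, *Prmt9* was higher in A3, at 23.9, 23.6 and 24.6 FPKM, than in A1, at 19.3 to 20.3 FPKM (0.26 ± 0.06, adjusted p = 0.019), lost without A1 replicate 1 or 2 or A3 replicate 2 or 3 (up to 0.072). *Prmt5*, which makes symmetric dimethylarginine and is needed by germ cells, had 69.7 and 73.5 FPKM in Aal, 58.7 to 68.0 FPKM in A1 and 58.8 to 65.1 FPKM in A3 (A3 against Aal -0.22 ± 0.07, adjusted p = 0.028), lost without either Aal library or A3 replicate 2 or 3 (up to 0.17). *Prmt3* did not pass.

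The last 12 members are PRDM, ARID, PHD finger and TET genes, 9 of them tested. *Arid5a* (chr1:36364578-36380874, plus strand), an RNA- and DNA-binding ARID protein, had 6.48 and 6.41 FPKM in Aal, 7.37, 8.82 and 7.05 FPKM in A1, and 10.5, 16.8 and 16.2 FPKM in A3. It was higher in A3 than in A1 (0.80 ± 0.18, adjusted p = 0.018) and than in Aal (1.03 ± 0.19, adjusted p = 0.0018), the former lost without A1 replicate 1 or A3 replicate 2 or 3 (up to 0.075). *Arid3b* went the opposite way, from 49.1 and 52.0 FPKM in Aal to 32.4, 28.5 and 26.0 FPKM in A1 and 27.0, 27.2 and 25.1 FPKM in A3 (A1 against Aal -0.79 ± 0.10, adjusted p = 0.00079). *Prdm11* had 2.17 and 2.75 FPKM in Aal, 4.86, 6.48 and 5.53 FPKM in A1, and 4.69, 5.72 and 5.72 FPKM in A3 (A1 against Aal 0.94 ± 0.15, adjusted p = 0.0026). The groups A1 and A3 of *Arid3b* and *Prdm11* overlapped.

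*Phf11d*, a member of a cluster of close copies that may share reads, had 6.34 and 5.22 FPKM in Aal and 7.65 to 11.3 FPKM in A1 (0.68 ± 0.17, adjusted p = 0.018), lost without either Aal library or A1 replicate 2 (up to 0.15). *Phf6*, an X-linked reader, had 8.20 and 7.06 FPKM in Aal, 9.19, 9.78 and 8.43 FPKM in A1, and 5.82, 6.48 and 5.56 FPKM in A3, lower in A3 than in A1 (-0.54 ± 0.10, adjusted p = 0.0094). *Phf14*, *Phf23* and *Prdm10* did not pass in any comparison. *Tet1*, which oxidises methylated cytosine, was listed at 0.485 and 0.359 FPKM in Aal, 0.106 to 0.272 FPKM in A1 and 0.149 to 0.240 FPKM in A3, and *Prdm1* and *Prdm12* stayed at or below 1.11 FPKM.

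**Figure D4:**
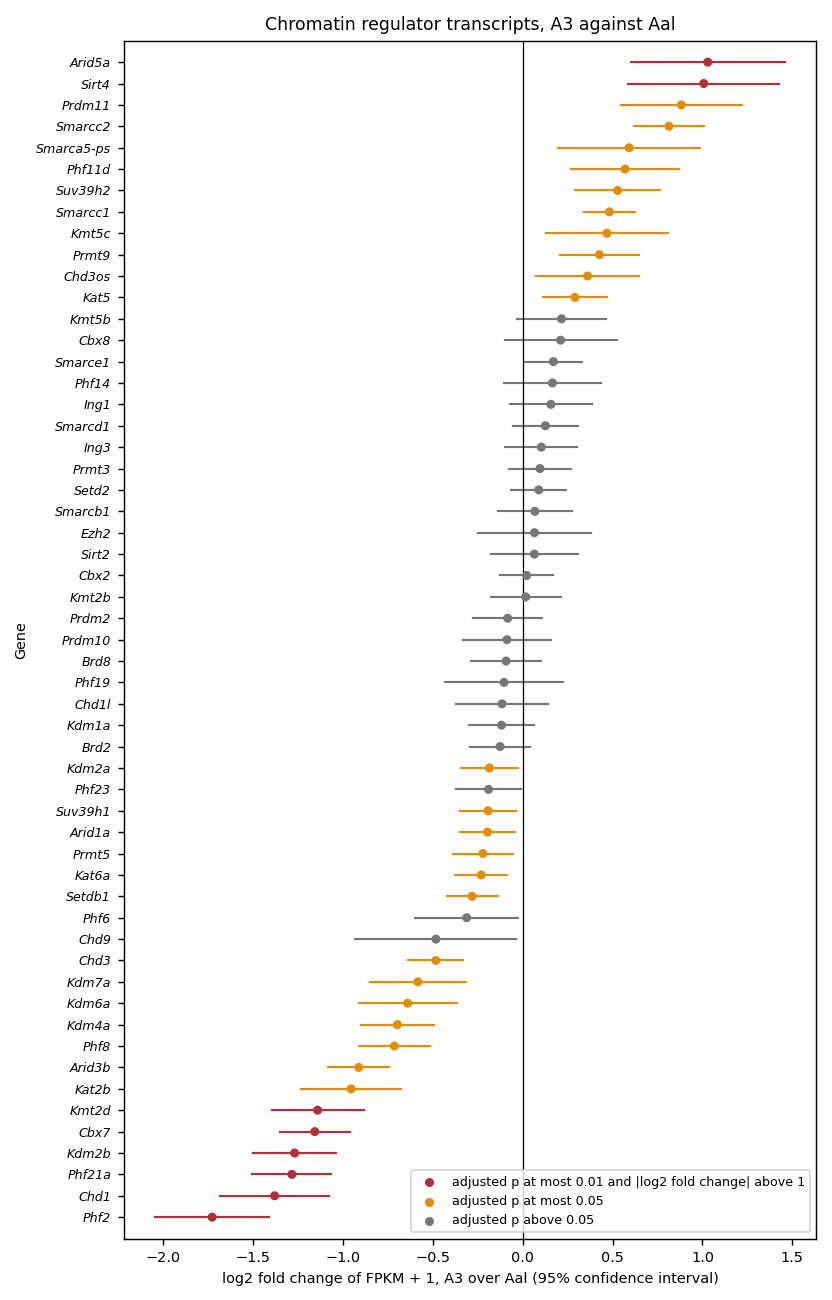
Log2 fold change of log2(FPKM + 1), A3 over Aal, for 55 members tested (rows, sorted), with 95% confidence intervals. Red marks an adjusted p up to 0.01 with a change beyond 1 either way, orange an adjusted p up to 0.05 and grey the rest. The range runs from *Phf2* at -1.73 to *Arid5a* at 1.03, with 2 red genes above 0 and 6 below.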

How the data were processed

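Bulk RNA-seq of 8 libraries was analysed from the table of FPKM values the authors deposited. The authors trimmed reads with cutadapt 1.9, aligned them to mm9 with STAR 2.5.2b and counted with featureCounts. The annotation, strand setting and FPKM step are not given in the sources used here, and the authors called genes with DESeq2. Groups came from the sample titles. FPKM values were whole multiples of 1 read, so reads were recovered: 99.983% of values were rebuilt within the set tolerance, and whole reads (within 0.05) were found for 100% of genes.

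Genes with at least 1 FPKM in at least 2 libraries of a pair of groups entered limma (version 3.58.1, R 4.3.3, functions lmFit and trended eBayes) on the log2(FPKM + 1) scale, two-sided, with Benjamini-Hochberg adjustment over all genes tested, and the test was checked on simulated data. Alternatives were another pseudocount, 2 other filters, 2 scalings, a fit on all 8 libraries, no trend, a replicate block, voom on recovered reads, a looser strict rule and leaving out each library.

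The members, roles and lists were chosen with earlier results of these data known. Named were members past the strict rule, the 10 highest and 10 lowest members called per comparison, members with a key role and the most abundant of each family, and partners past the strict rule or with the lowest adjusted p of a list. Results of 3 members are not reported here by name, though counts over all members include them. Other genes were chosen after their values were seen. The paralog ratios, the X-linked counts and the promoter windows were also chosen after their values were seen. Positions are from GENCODE M1 (mm9) and found for 60 of 62 members, of which 27 overlap another gene. Promoter sequences are from RefSeq GRCm38.p6.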

Additional observations from a re-analysis of the deposited data

How the results depend on the processing

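Of 69 member tests past an adjusted p of 0.05 in limma, 41 passed under every alternative run: 13 of 23 in A1 against Aal, 7 of 14 in A3 against A1 and 21 of 32 in A3 against Aal. Over 975 alternative values, 849 stayed past the threshold, 126 did not and 0 changed direction. Of the 104 tests not past it, 19 passed in at least 1 alternative and 37 changed sign in at least 1. The losses named for single genes leave out the filters, the pseudocount, the trend and the replicate block. Calls given as lost for *Smarcc1*, *Setdb1*, *Kdm2a*, *Arid1a*, *Kat6a*, *Suv39h1* and *Prmt5* were also lost with no trend and with the replicate block. Those of *Prmt9*, *Kmt5c*, *Ing3* and *Chd9* were also lost with the block, and those of *Suv39h2* and *Chd3os* with no trend. In A3 against A1, 2 members instead of 1 passed the strict rule in the fit on all 8 libraries, in voom on recovered reads and at an adjusted p of 0.05. At the looser limit the second member was *Chd9*, with a log2 fold change of -1.02 and a limma adjusted p of 0.013. For the fit on all libraries and for voom the cause was not tested. Leaving out 1 library gave 1 to 6 strict, 4 to 9 higher and 9 to 13 lower members in A1 against Aal, 1 to 3, 1 to 4 and 6 to 12 in A3 against A1, and 7 to 9, 7 to 14 and 14 to 20 in A3 against Aal. Where 1 Aal library remained, it is assumed to vary like the other group. Other scalings left the median of all genes between 0.0041 and 0.0214.

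Replicate numbers occur in all groups, and the deviations of same-numbered libraries from their group means correlated between -0.32 and 0.05. Deviations within groups of 2 or 3 libraries are tied to each other. These values therefore cannot show whether same-numbered libraries share a litter or batch. With the replicate block, 2 members in place of 4 were higher in A3 against A1 and 7 were lower, 8 were higher and 11 lower in A1 against Aal, and 12 were higher and 15 lower in A3 against Aal. Depth limits the lowest members, with 8 reads at the least, and groups of 2 and 3 libraries limit small differences.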
